A study of Mus musculus with 39 samples.

Results

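A miRNA hairpin is cut into a duplex of 2 short strands, and the array used in this study carried separate probes for both strands of many hairpins. The strand that was cloned less often was given a star in the older nomenclature (miR-294*), and the other is called the main strand here (miR-294). This account follows 87 star strands of mouse miRNAs, of the 115 star rows among the 611 mouse rows and 650 miRNA rows of the array. They were chosen by name, with earlier results of these data known, starting from every mouse row whose name ends in a star. Left out were rows of the rodent repeat clusters, the imprinted Dlk1-Dio3 cluster and a block of mouse miRNA numbers with miR-708* and miR-712*. Also left out by name were miR-9*, miR-24-2*, miR-99b*, miR-124*, miR-130b* and miR-302b*. Of the 87, 86 had their main strand on the array, miR-199b* being the exception, and 83 distinct main strands served as partners because 3 of them are shared by a pair of star strands from separate hairpins.

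The cells were mouse embryonic stem cells (ESCs) of the TCL-1 line from 129/SvJae mice, a single line, grown on fibroblast feeders that were removed on gelatin before differentiation. Undifferentiated ESCs were 1 group, and cells in serum-free medium with B27 and sodium butyrate were sampled at day 1, 3 and 5 either untreated (control) or treated, with Wnt3a at 50 ng/ml, with Activin A at 100 ng/ml, or with the pair together, a protocol for definitive endoderm. Each of the 13 groups had 3 arrays, 39 in all, and no source used here says whether these came from separate cultures, so p-values measure the spread between these samples. Values are log2 of quantile normalized signals with a floor of 2, so that a signal at the floor reads 1.00, and "detected" means that the scanner software set its detection flag for the miRNA on that array. In the normalized table of the authors, 18 of 39 columns hold the values of another array, with Activin A and its combination with Wnt3a exchanged on every day. The groups here follow the labels of the scanner files. The files alone do not settle which assignment is right, and under the other one the values of these 2 treatments change places.

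During biogenesis Drosha and Dicer cut the hairpin, an Argonaute protein takes up the duplex, and the strand that stays bound guides the protein to messenger RNAs through its seed, the bases 2 to 8. The other strand, the passenger, is usually released and degraded, so both strands come from the same transcript but reach different steady levels. Star strands can nevertheless be loaded, and with a seed of their own they would address other messages. The miR-290 cluster, to which miR-293, miR-294 and miR-295 belong, is the main miRNA cluster of mouse ESCs, the miR-302 cluster marks the primed epiblast that follows, and the miR-17 type clusters are expressed in dividing cells in general.

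Strands of 3 sets of hairpins described below are printed here, so that seeds can be compared within a hairpin and within a cluster. Sequences are those of RefSeq on GRCm38.p6, in which 81 of the 87 precursors were found by name and 66 had both arms. Capitals mark the seed. The first set holds the early embryonic clusters.
miR-293*: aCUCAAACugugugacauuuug
miR-294*: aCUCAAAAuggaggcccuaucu
miR-295*: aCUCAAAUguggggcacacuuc
miR-294: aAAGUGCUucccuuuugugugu
miR-295: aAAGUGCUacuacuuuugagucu
miR-302a*: aCUUAAACgugguuguacuugc
miR-302c*: gCUUUAACaugggguuaccugc
MiR-294 and miR-295 share a seed, whereas the star strands miR-293*, miR-294* and miR-295* have the same first 7 bases and then part, so that none of the 3 shares its full seed with another. On the plus strand of chromosome 7 miR-293* lies at chr7:3220356-3220377, miR-294* at chr7:3220655-3220676 and miR-295* at chr7:3220779-3220800. MiR-302c* at chr3:127545368-127545389 and miR-302a* at chr3:127545501-127545522 are encoded within an intron of Larp7.

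The second set belongs to the miR-17 type clusters and shows strands of paralogous hairpins that differ in few bases.
miR-17*: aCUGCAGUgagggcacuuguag
miR-20b*: aCUGCAGUgugagcacuucuag
miR-20a*: aCUGCAUUacgagcacuuaaag
miR-17: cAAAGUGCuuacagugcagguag
miR-20b: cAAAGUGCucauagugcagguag
miR-20a: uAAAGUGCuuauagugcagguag
The 3 main strands have 1 seed. Of the star strands, miR-17* and miR-20b* share a seed and differ by A10U, G12A and G19C, counted from 1 at the 5′ end with the base of miR-17* first, while the seed of miR-20a* is another. MiR-17* lies at chr14:115043721-115043742 and miR-20a* at chr14:115044219-115044240 in the same transcript, and miR-20b* at chrX:52742122-52742143 on the minus strand in the paralogous cluster.

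The third set holds the miR-30 and miR-183 hairpins, in which star strands fell or rose with Activin A.
miR-30a*: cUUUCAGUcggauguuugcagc
miR-30e*: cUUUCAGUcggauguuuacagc
miR-30a: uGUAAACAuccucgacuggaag
miR-30e: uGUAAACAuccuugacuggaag
miR-183*: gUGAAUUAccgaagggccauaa
miR-183: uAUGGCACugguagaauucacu
MiR-30a* and miR-30e* share their seed and differ by a single base, G18A, so cross-hybridization between their probes cannot be told apart from signal of the named strand. The main strands miR-30a and miR-30e also differ by 1 base, C13U. MiR-30a* lies at chr1:23272315-23272336 on the plus strand, miR-30e* at chr4:120772618-120772639 on the minus strand within an intron of Nfyc, and miR-183* at chr6:30169672-30169693 on the minus strand.

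Star strands were detected far less often than their main strands. Of the 87, 6 were detected on all 39 arrays (miR-17*, miR-135a*, miR-140*, miR-294*, miR-295* and miR-674*), 35 on some and 46 on none, so that 47.1% were seen at least once. Of the 83 main strands, 39 were detected on all arrays, 37 on some and 7 on none, so that 91.6% were seen at least once. Taken pair by pair, the main strand was detected on more arrays in 71 of 86 pairs, the star strand in 6, and both on the same number in 9, which were 4 pairs seen on all arrays and 5 seen on none. In 16 pairs the main strand was on all arrays and the star strand on none, and these star strands were miR-15a*, miR-16*, miR-21*, miR-22*, miR-24-1*, miR-26b*, miR-27a*, miR-27b*, miR-29a*, miR-29b*, miR-29c*, miR-30b*, miR-34c*, miR-125b*, miR-148a* and miR-200c*. Several of their main strands are abundant in most tissues, such as miR-16, which slows the cell cycle. The star strands of let-7c-1, let-7d, let-7g, let-7i, miR-10a, miR-10b, miR-33, miR-101a, miR-133a, miR-138, miR-141, miR-145, miR-150, miR-181a-2, miR-193, miR-196a, miR-203, miR-214, miR-218-1, miR-218-2, miR-325, miR-455, miR-470, miR-503 and miR-676 were also on no array, with their main strand on some, and for miR-146b, miR-330, miR-742, miR-879 and miR-881 neither strand was detected. Detection depends on the probe as well as on the RNA, so it does not rank the strands of a hairpin by amount, and levels of a star and a main strand were not set against each other.

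**Figure D1:**
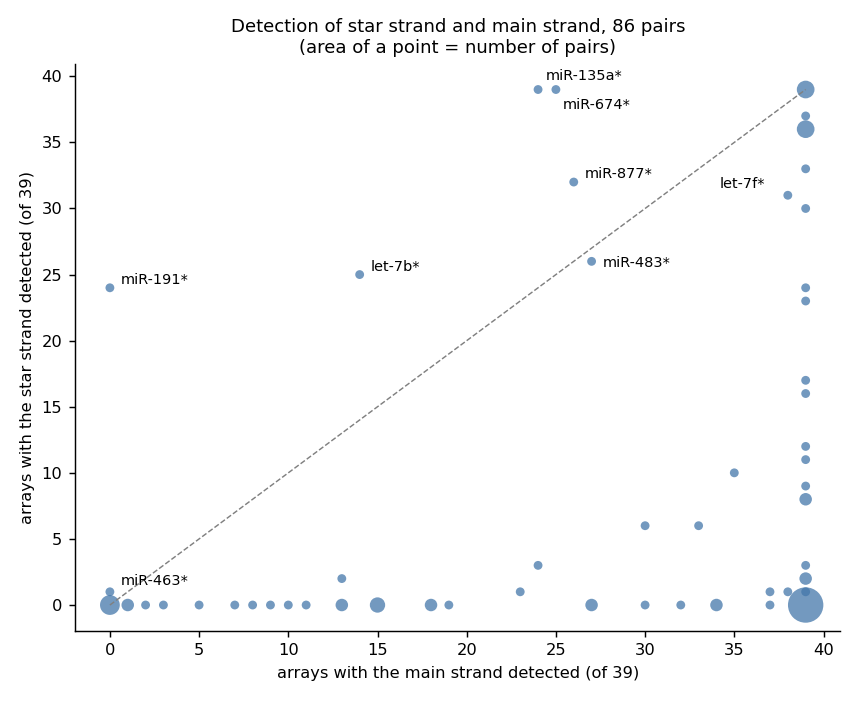
Number of the 39 arrays on which the main strand (x axis) and the star strand (y axis) of each of 86 pairs were detected, with the area of a point standing for the number of pairs and the dashed line for equality. The largest point, at 39 and 0, holds 16 pairs, and 6 pairs lie above the line.

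The 6 star strands detected on more arrays than their main strand were miR-135a* (39 against 24), miR-674* (39 against 25), miR-191* (24 against 0), miR-877* (32 against 26), let-7b* (25 against 14) and miR-463* (1 against 0). MiR-135a, known to target Apc, a brake on Wnt signalling, was undetected on every array of ESCs and day 1, while miR-135a* read 7.63, 7.46 and 7.52 in ESCs and 5.99, 5.74 and 5.76 in control cells at day 1. At day 3 both strands were detected, with miR-135a* at 8.26, 8.32 and 8.48 in control cells, and at day 5 the star strand there was 8.57, 8.66 and 8.72. The star strand therefore fell from ESCs to control day 1, by 1.71 on the log2 scale (limma, adjusted p = 1.47e-10), and rose again by 2.53 to control day 3 (adjusted p = 6.06e-15).

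The let-7b strands were detected on different days. Let-7b, one of the let-7 miRNAs that accumulate in differentiated cells, read 7.03, 6.82 and 6.82 in control cells at day 1 and was undetected on all arrays of days 3 and 5. Let-7b* was undetected on those 3 arrays of day 1 and was detected at day 5 in control cells at 4.02, 3.49 and 3.86. Signals this low were at or below the lowest that the control arrays of day 1 detected (15.3 to 33.7 before the log), so no rise of the star strand is shown. Feeder fibroblast markers, given with miR-199b* below, fell over the same days as let-7b, and their part in its loss was not tested. Within a group let-7b* spread widely, from undetected to 4.66 in Activin A plus Wnt3a at day 5. MiR-191* was likewise uneven within groups, at 3.52, 1.00 and 3.32 in control cells at day 5, and did not differ among the groups (adjusted p = 0.266).

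Detection varied with the family of the hairpin. All 5 star strands of the early embryonic clusters (miR-293*, miR-294*, miR-295*, miR-302a* and miR-302c*) and all 8 of the miR-17 type clusters (miR-17*, miR-18a*, miR-19a*, miR-20a*, miR-20b*, miR-92a*, miR-93* and miR-106b*) were detected at least once. None was detected among the 3 of the miR-23, miR-24 and miR-27 clusters, the 3 of the miR-29 family and the 3 of the miR-10 and miR-196 family, although the main strands of the first and second of these families were on all 39 arrays. In between were the miR-26 and miR-30 families with 4 of 6 (miR-30a*, miR-30c-1*, miR-30c-2* and miR-30e*), let-7 with miR-125 with 3 of 8 (let-7a*, let-7b* and let-7f*), the epithelial miR-200 and miR-141 family with 2 of 4 (miR-200a* and miR-200b*), and the miR-15 and miR-16 family with 2 of 5 (miR-15b* and miR-322*). The fibroblast miRNAs gave 1 of 3 (miR-199b*) and the miR-181 family 1 of 2 (miR-181a-1*). The other 37 star strands, of hairpins with no family here, gave 15. Of the strands left out by name, miR-24-2* was on 7 arrays, miR-302b* on 8 and miR-99b* on 31. The family counts therefore hold only for the star strands followed here. They also rest in part on few arrays, since 10 of the 41 star strands seen were on 1 to 3 arrays. Let-7a* and miR-19a* were each on 1 array, in Wnt3a at day 5, and at the floor there. MiR-93*, miR-200a* and miR-200b* were likewise at the floor wherever detected.

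More star strands were detected late than early. On the 15 arrays of ESCs and day 1, 7 to 19 star strands were detected per array, and on the 24 arrays of days 3 and 5, 15 to 35. Counted as detected on at least 2 of 3 arrays, there were 8 in ESCs, 13 in control cells at day 1, 21 at day 3 and 25 at day 5, and the highest count was 31, in Wnt3a at day 5. As many as 20 star strands were seen at day 3 or 5 and on no earlier array, among them miR-302a*, miR-302c*, miR-30a*, miR-31* and miR-322*, and 0 were seen in ESCs or at day 1 and never later. The main strands went from 49 to 59 per array on the early arrays to 56 to 68 on the later ones. Main strands such as miR-181a, miR-186, miR-503 and miR-744 were likewise seen at day 3 or 5 alone. The matching share over all miRNAs was not counted, so late detection is not shown to be particular to star strands. The lowest normalized signal that was flagged detected fell over the same arrays, from 12.3 to 34.4 in ESCs and day 1 to 2 to 11.3 at day 3 and 2 to 2.83 at day 5, and the part of this shift in the rise of detection was not tested.

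**Figure D2:**
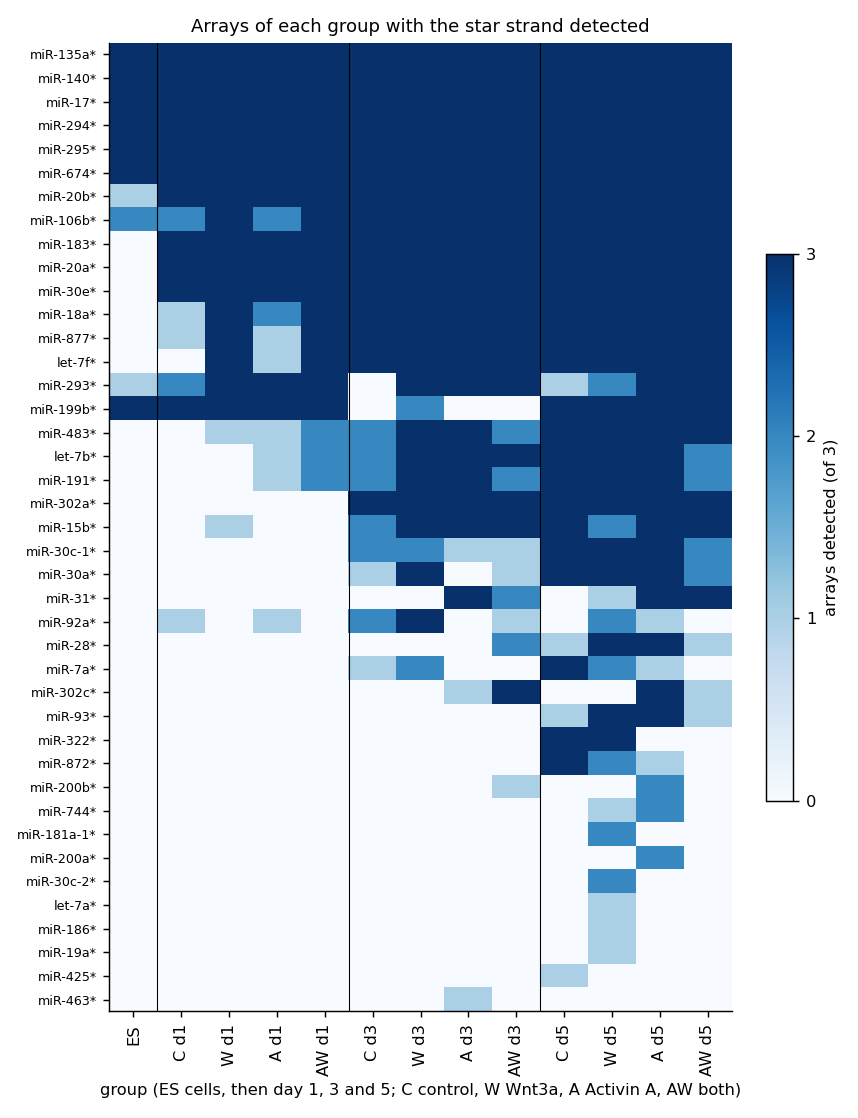
Number of arrays of each group (columns, 3 arrays each) on which each of the 41 star strands seen at least once (named at the left) was detected, from white for 0 to dark blue for 3. The 6 strands at the top were detected throughout, and strands further down appear on later days.

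Among the 13 groups most star strands that could be tested differed. Strands entered the test when 2 or more of the 3 arrays of any group detected them, so strands seen in 1 group alone are among those tested and the counts describe these strands, not all 87. By limma's F-test with Benjamini-Hochberg adjustment over all miRNAs tested, 24 of 36 star strands and 72 of 73 main strands differed, against 88.5% of all 373 miRNAs tested. The range of the group means of those 24 star strands had a median of 3.18 on the log2 scale. Undetected arrays enter at the floor, although the lowest signals detected on arrays of ESCs and day 1 were 12.3 to 34.4 before the log. The ranges of miR-18a*, miR-20a* and miR-30e*, for example, start from undetected ESCs. Ranges and calls that rest on such groups can therefore be set by the floor. MiR-140*, from a hairpin best known in cartilage, had the narrowest range of them, 0.78. The 12 tested strands that did not pass were miR-28*, miR-30c-1*, miR-30c-2*, miR-93*, miR-106b*, miR-181a-1*, miR-191*, miR-200a*, miR-200b*, miR-483*, miR-744* and miR-872*. MiR-93* read 1.00, the floor, on all 8 arrays that detected it, and miR-200a*, miR-200b* and miR-744* were likewise at the floor wherever detected. MiR-106b*, on 36 arrays, miR-483*, on 26, and miR-191*, on 24, were above it on most of theirs.

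With undetected groups entered at 1.00, the widest ranges were those of miR-199b*, miR-302a* and miR-294*. MiR-302a* was undetected on all 15 arrays of ESCs and day 1 and read 5.30, 5.24 and 5.43 in control cells at day 3 and 3.1, 3.20 and 3.25 at day 5. MiR-294* read 6.95, 7.0 and 6.86 in ESCs, 6.80, 7.08 and 7.12 in control cells at day 1, 4.72, 4.29 and 4.89 at day 3 and 2.57, 2.74 and 1.91 at day 5. The star strand of the pluripotency cluster thus fell by 2.36 from control day 1 to day 3 (adjusted p = 1.33e-07) and by 2.23 from day 3 to day 5 (adjusted p = 1.11e-06). That of the epiblast cluster, miR-302a*, fell by 2.14 from day 3 to day 5 (adjusted p = 2.51e-12). How far miR-302a* had risen from ESCs cannot be stated, since the lowest signals detected on ESC arrays were 15.8 to 34.4 before the log. In bulk RNA such as this, fewer cells of a type and less RNA per cell cannot be told apart.

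Treatment changed few star strands at day 1 and more of them later. To count as changed on a day, a miRNA had to pass limma's F-test for any difference of the 3 treatments from control (adjusted p under 0.05) and to differ more than 2-fold in 1 of them or more. At day 1, 1 of 19 star strands tested was changed, against 4.17% of all miRNAs tested. The F-test alone was passed there by 4 of 19, let-7f*, miR-140*, miR-294* and miR-295*, against 58 of 240 miRNAs. At day 3, 10 of 28 were changed, against 24.8%, and at day 5, 11 of 36, against 30.7%. The main strands gave 1 of 57, 21 of 62 and 31 of 68 on the same days. The median absolute difference between Activin A plus Wnt3a and control was 0.49 over the star strands at day 1 and 0.26 over all miRNAs tested. It was 0.57 against 0.50 at day 3 and 0.61 against 0.69 at day 5. Of the star strands above the median at day 1, all but miR-294* were undetected on 1 or more control arrays. Those arrays enter at the floor, so a stronger response of star strands at day 1 is not shown. At day 3 the combination was hybridized on a slide with no other array of that day and scanned in another session, so slide, session and treatment cannot be told apart, while 2 of 3 control arrays shared a slide with those of Wnt3a and Activin A. With slide as a block the counts were 0, 9 and 11, with a floor of 8 they were 0, 4 and 6, and after normexp background correction with an offset of 50 they were 0, 0 and 0.

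Star strands of the pluripotency cluster stayed higher with Activin A, and miR-294* and miR-295* at day 3 to a lesser degree with Wnt3a alone. MiR-294* read 6.14, 6.14 and 6.08 in Activin A and 6.19, 6.40 and 6.48 in Activin A plus Wnt3a at day 3, where Wnt3a gave 5.43, 5.35 and 5.35. All 9 treated arrays were above the 3 control arrays given above, and Activin A plus Wnt3a rose over control by 1.72 ± 0.14 (SE, limma, adjusted p = 2.93e-06). Wnt3a alone rose by 0.74 ± 0.14 (adjusted p = 0.0027). At day 5 Activin A plus Wnt3a read 5.4, 5.55 and 5.67 and was higher than control by 3.13 ± 0.51 (adjusted p = 0.000829), and the main strand miR-294 rose by 2.10 ± 0.21 (adjusted p = 3.00e-05). Wnt3a at day 5 read 4.17, 1.99 and 4.02, overlapping the control, with a difference of 0.98 ± 0.51 (adjusted p = 0.295).

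MiR-295* followed the same course. Its 3 control arrays read 3.69, 4.21 and 3.66 at day 3, and those of Activin A plus Wnt3a 5.71, 5.53 and 5.63, a rise of 1.77 ± 0.13 (adjusted p = 2.02e-06). At day 5 the values were 2.74, 2.21 and 2.02 in control and 4.79, 4.72 and 4.35 in Activin A plus Wnt3a, a rise of 2.30 ± 0.38 (adjusted p = 0.000844). Activin A alone rose by 1.52 ± 0.13 at day 3 and 2.16 ± 0.38 at day 5. Wnt3a alone rose by 0.69 ± 0.13 at day 3 (adjusted p = 0.00342) and by 1.30 ± 0.38 at day 5 (adjusted p = 0.0728). At day 1 Wnt3a and the combination differed from control by 0.62 and 0.78 for miR-294* (adjusted p = 0.0162 and 0.00482). For miR-295* the differences there were 0.40 and 0.49 (adjusted p = 0.00453 and 0.00113). Activin A alone gave 0.22 and 0.12 at day 1 (adjusted p = 0.566 and 0.418).

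MiR-293* was undetected on the 3 control arrays of day 3, so its change is given as a bound. It read 4.03, 3.66 and 4.02 in Activin A, at least 2.81-fold higher, and 4.35, 3.93 and 3.95 in Activin A plus Wnt3a, at least 3.18-fold higher (adjusted p = 8.65e-08). A bound sets the mean of the detected group against the lowest signal detected for any miRNA on each of its partner arrays. That limit differs between probes: before normalization miR-31* was flagged at 7.62 and above, and miR-93* down to 3.44. The true fold can therefore be smaller than a bound. In Wnt3a it was detected at 2.25, 2.63 and 2.25 but no fold can be stated. The markers of undifferentiated ESCs moved with these strands: 6 of 6 were detected in every group, and their summed level on the log2 scale was 12.94 to 13.06 in control cells at day 5, 14.68 to 14.84 in Activin A and 14.95 to 15.04 in Activin A plus Wnt3a. MiR-293, miR-294 and miR-295, the main strands of these hairpins, are 3 of the 6 markers, and the share of undifferentiated cells in the result was not tested.

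In the epiblast cluster miR-302a* rose with Activin A as well and fell with Wnt3a alone. MiR-302a* at day 3 read 5.97, 6.03 and 6.03 in Activin A, 6.52, 6.56 and 6.53 in Activin A plus Wnt3a and 4.57, 4.62 and 4.48 in Wnt3a. The 4 groups of that day did not overlap. Activin A plus Wnt3a rose over control by 1.21 ± 0.06 (adjusted p = 8.65e-08) and Wnt3a fell by 0.76 (SE 0.06, adjusted p = 1.40e-05), which is under the 2-fold limit. At day 5 Activin A read 6.10, 5.99 and 5.97, higher than control by 2.84 ± 0.26 (adjusted p = 2.77e-05), and Wnt3a read 1.00, 2.02 and 2.25, lower by 1.43 with SE 0.26 (adjusted p = 0.0116).

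The 3 Wnt3a arrays at day 5 stood apart from each other more than those of any other group, with a root mean square distance from the other replicates of 1.14, 0.765 and 0.621 against at most 0.348 elsewhere. The first of them gave the lowest value of miR-302a* there. MiR-302c*, from the same transcript, was detected in Activin A plus Wnt3a at day 3, at 2.83, 2.41 and 2.18, and on 0 of 3 control arrays. It counts among the strands called at day 3, but the lowest signals of any miRNA on the control arrays leave a bound of only 1.05-fold. In Activin A at day 3 it was on 1 array (a difference of 0.35, adjusted p = 0.296) and in Wnt3a on none. At day 5 it was flagged on all 3 arrays of Activin A but at the floor, and it did not pass the test.

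**Figure D3:**
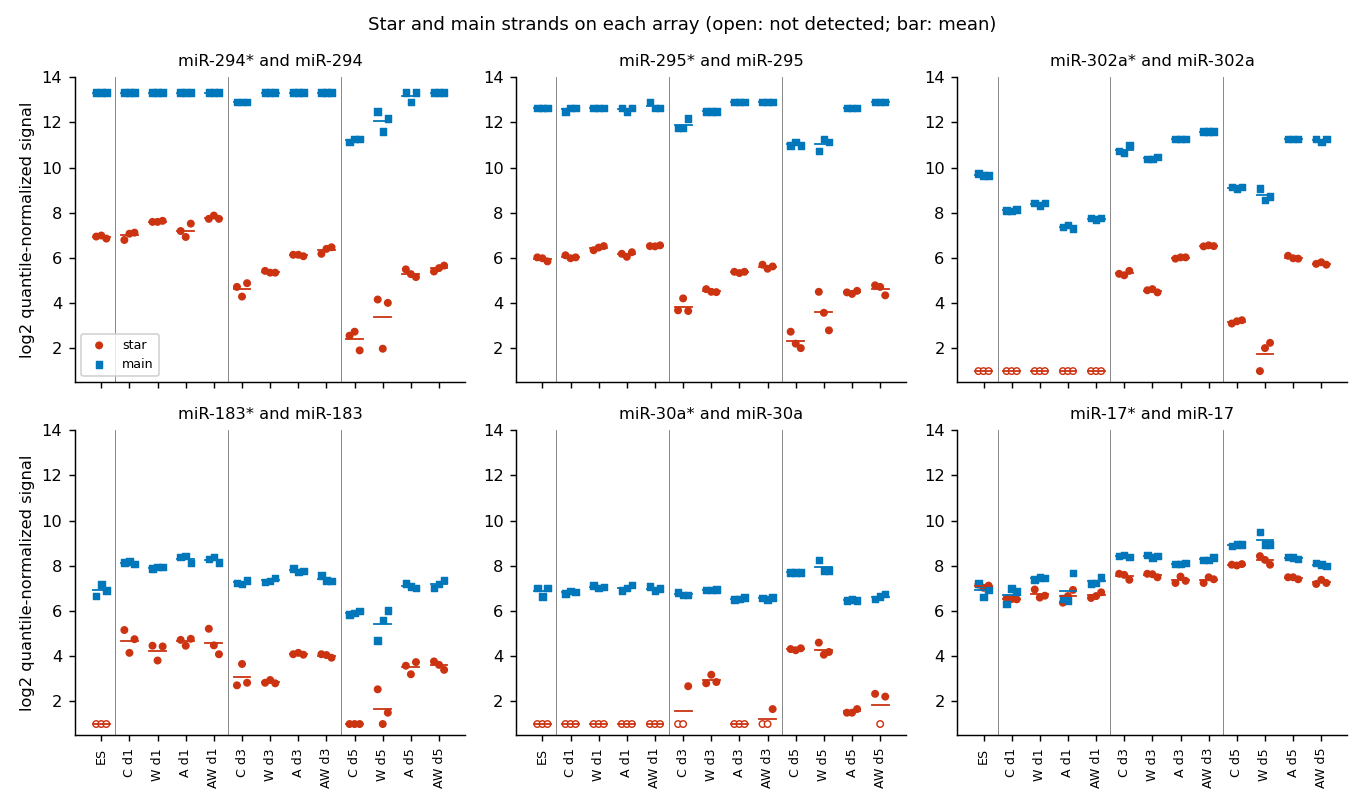
Log2 quantile normalized signal (y axis) of 6 star strands (red circles) and their main strands (blue squares) on each of the 39 arrays, by group along the x axis (ES, then C control, W Wnt3a, A Activin A and AW both, at day 1, 3 and 5), with open symbols where the strand was not detected and a bar at the group mean. Heights of the 2 strands are not comparable because their probes differ, and at day 5 both miR-294* and miR-294 are higher in AW than in C.

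MiR-183*, from the hairpin of a cluster expressed in sensory and epithelial cells, rose with Activin A. At day 3 it read 2.71, 3.66 and 2.83 in control cells, 4.09, 4.15 and 4.07 in Activin A and 4.09, 4.05 and 3.93 in Activin A plus Wnt3a. Both treated groups lay above all control arrays, by 1.04 ± 0.20 (adjusted p = 0.00181) for Activin A, or 0.86 against the 2 control arrays of the same slide and -0.0766 after normexp, and 0.96 ± 0.20 (adjusted p = 0.00247) for the combination. At day 5 the control arrays were detected but at the floor, 1.00 each, and Activin A plus Wnt3a read 3.77, 3.62 and 3.40, a difference of 2.59 ± 0.33 (adjusted p = 0.000155) that the floor limits. The main strand miR-183 was 1.28 ± 0.28 higher in that comparison (adjusted p = 0.00435). In ESCs miR-183* was undetected on all 3 arrays, whereas all 12 arrays of day 1 detected it, between 3.81 and 5.21. That range overlaps the lowest signals detected on ESC arrays (15.8 to 34.4 before the log), so no rise from ESCs is shown.

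In the miR-30 family miR-30a* and miR-30e* fell with Activin A at day 5. MiR-30c-1* changed by -0.08 (adjusted p = 1), but it was at or near the floor in both groups, so a fall could not show. With 1 scale factor per array in place of quantile normalization, miR-30c-1* read 2.38, 2.26 and 2.29 in control cells. In Activin A it read 1.67, 1.76 and 1.74 on that scale, with no overlap. MiR-30c-2* was undetected in Activin A and in control cells at day 5. MiR-30a* was undetected in ESCs and at day 1, and at day 5 it read 4.31, 4.26 and 4.35 in control cells against 1.5, 1.5 and 1.66 in Activin A, lower by 2.75 with SE 0.31 (the log2 change was -2.75, adjusted p = 8.67e-05). Activin A plus Wnt3a detected it on 2 of 3 arrays, at 2.34 and 2.21, and the change was -2.46 (adjusted p = 0.000145). The main strand miR-30a changed in the same direction, by -1.23 in Activin A and -1.07 in the combination. MiR-30e* was detected from day 1 on, read 5.30, 5.32 and 5.29 in control cells at day 5 and 4.29, 4.26 and 4.29 in Activin A, and changed by -1.02 ± 0.09 (adjusted p = 2.77e-05). The main strand miR-30e did not pass the test in that contrast, with a difference of -0.25 ± 0.13 (adjusted p = 0.184).

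In the miR-17 type clusters miR-17* and miR-18a* fell at day 5 by less than 2-fold. MiR-17* fell by 0.77 in Activin A plus Wnt3a at day 5 (SE 0.09, adjusted p = 0.000106), from 8.05, 8.01 and 8.07 to 7.19, 7.38 and 7.24, with no overlap. MiR-18a* read 4.37, 4.48 and 4.40 in control cells and 3.52, 3.53 and 3.49 in the combination and fell by 0.90 (SE 0.08, adjusted p = 1.13e-05). These hairpins belong to the transcript that Myc is known to activate, and the main strand miR-17 fell by 0.87 in the same comparison (adjusted p = 0.000559). MiR-20a*, at 5.97, 5.80 and 5.72 against 4.82, 5.00 and 4.68, fell by 0.99 in the single contrast (adjusted p = 0.0247) but its F-test did not pass (adjusted p = 0.0586). MiR-20b* rose in Activin A, which at day 5 read 3.88, 3.91 and 3.66 against 3.07, 3.16 and 3.07 in control, a difference of 0.71 ± 0.18 (adjusted p = 0.0115). In ESCs miR-18a* and miR-20a* were on 0 arrays and miR-20b* on 1, and at day 1 miR-20a* was on all 12. Group means of miR-20a* there, 4.62 to 4.92, lay within the range of lowest signals on ESC arrays (15.8 to 34.4 before the log). No rise from ESCs is therefore shown.

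MiR-31*, from a hairpin studied mostly in epithelial and tumour cells, was undetected in control cells on every day. At day 3 Activin A read 3.16, 3.04 and 3.27, at least 1.68-fold higher (adjusted p = 0.000215), and at day 5 Activin A plus Wnt3a read 2.74, 2.57 and 3.23, at least 3.59-fold higher (adjusted p = 0.000139). The main strand miR-31 rose by 1.64 ± 0.13 in the latter comparison. MiR-322*, the partner of the miR-15 family member miR-322, went the other way: it read 1.66, 2.13 and 2.25 in control cells at day 5 and was undetected in Activin A and in the combination, at least 2.02-fold and 1.64-fold lower. MiR-92a* at day 3 was at least 1.14-fold lower in Activin A, where it was undetected, and was on 2 of 3 control arrays. All these bounds share the limit given for miR-293*, that a probe can have a higher detection limit. MiR-135a* at day 5 changed by -1.21 ± 0.22 in Activin A plus Wnt3a (adjusted p = 0.00158), with 7.38, 7.52 and 7.43 below all control arrays.

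MiR-199b* stood apart in its course over time. It read 5.92, 5.83 and 5.78 in ESCs and 6.43, 6.30 and 6.37 in control cells at day 1, and was undetected on all 3 control arrays of day 3. At day 5 it was detected again, at 2.13, 2.18 and 1.82 in control cells and 3.37, 3.20 and 3.66 in Activin A plus Wnt3a, which was higher by 1.37 ± 0.42 (adjusted p = 0.0253). Feeder fibroblast markers moved with it. Of 6 listed, 5 were on the array, and 3 or 4 of these were detected in ESCs and at day 1, 1 at day 3 and 1 to 3 at day 5. Their summed log2 level was 8.6 to 9.89 in ESCs and at day 1, 3.32 to 5.17 at day 3, 4.94 to 5.09 in control cells at day 5 and 6.01 to 6.11 in Activin A plus Wnt3a. MiR-145 was undetected in every group other than Wnt3a and Activin A at day 5. MiR-199b* is the other arm of a fibroblast hairpin of that list, and the part of feeder cells in its course was not tested.

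At day 1 the strand that changed was let-7f*, undetected on the 3 control arrays. It read 4.31, 3.77 and 4.41 in Wnt3a and 4.40, 4.37 and 4.46 in Activin A plus Wnt3a, with adjusted p = 0.0253 and 0.0166. The lowest signals that the control arrays detected were on average above these values, so no fold is given. The count of 1 was 0 when any 1 array of control, Wnt3a or the combination was left out. Its main strand let-7f was near 8.9 on the control arrays of that day, at 8.94, 8.87 and 8.94, and near 4 at day 3, at 3.84, 4.17 and 3.88. Let-7f* was 4.26, 3.49 and 4.19 at day 3, when the main strand had fallen. These signals lay within or below the range of lowest signals on the control arrays of day 1 (15.3 to 33.7 before the log). No rise of the star strand is therefore shown. Feeder fibroblast markers fell over the same days as let-7f, and their part in its fall was not tested.

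Whether the strands of a hairpin changed equally was tested on the difference of their log2 signals within an array, star minus main, read only between groups. Among the 13 groups 4 of 4 pairs with both strands on all arrays differed (miR-17, miR-140, miR-294 and miR-295), against 81.8% of the 11 arm pairs tested on the array. Within days, 0 of 8 pairs changed at day 1 (2 of the 8, miR-294 and miR-140, passed the F-test with differences under 1), against 11.8% of 17 arm pairs, 2 of 15 at day 3, against 16.7% of 36, and 4 of 15 at day 5, against 19.4% of 36. A pair counted as changed within a day when the F-test passed and 1 treatment differed from control by more than 1 on the log2 scale.

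The miR-294 and miR-295 pairs show how far this rests on the scaling. From ESCs to control day 3 miR-294* fell by 1.87 more than miR-294 (adjusted p = 6.61e-08) and miR-295* by 1.35 more than miR-295 (adjusted p = 0.000114). MiR-294 was the brightest miRNA on 29 of 39 arrays and within the brightest 12 on all, and quantile normalization gives every array the same top values, so miR-294 read 13.32 on all 15 arrays of ESCs and day 1. With 1 scale factor per array, under which the within-array difference keeps its measured size above the floor, the changes were -0.32 (adjusted p = 0.206) for miR-294 and 0.08 (adjusted p = 0.773) for miR-295. On that scale miR-294 read 13.73, 13.91 and 13.85 in ESCs and 12.05, 11.97 and 12.19 in control cells at day 3, and miR-294* went from 6.49, 6.72 and 6.46 to 4.73, 3.83 and 4.87. The F-test over the 13 groups passed on that scale too, with ranges of 0.95 for miR-294 and 1.19 for miR-295 in place of 3.27 and 2.51.

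The miR-17 pair kept its change under both scalings. MiR-17* read 7.17, 7.03 and 7.12 in ESCs and 7.65, 7.60 and 7.38 in control cells at day 3, and miR-17 went from 7.22, 6.61 and 6.95 to 8.43, 8.48 and 8.40. The main strand rose more, so that star minus main changed by -1.07 ± 0.20 (adjusted p = 1.90e-05), and by -1.01 (adjusted p = 3.96e-05) with 1 scale factor per array. The miR-140 pair differed among the groups (adjusted p = 0.00213) with a range of 1.15, and its change from ESCs to control day 3 was 0.40 ± 0.24 (adjusted p = 0.132).

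Within days the pairs of miR-294, miR-20a, miR-20b, miR-30e and miR-302a were called, miR-294 and miR-20b at day 3 and the last 4 at day 5. By the same rule with 1 scale factor per array none of these calls held, and other pairs were called in their place. At day 3 these were miR-183 (1.33 in the combination, F-test adjusted p = 4.86e-06) and miR-30e (-1.03 in Activin A, F-test adjusted p = 0.0108), and at day 5 miR-674 (-1.04 in Wnt3a, F-test adjusted p = 0.0457). At day 3 miR-294* rose more than miR-294 in Activin A plus Wnt3a, by 1.29 ± 0.14 (adjusted p = 1.63e-05), and by 0.78 (adjusted p = 0.00343) with 1 scale factor per array. For miR-20b the main strand fell, from 12.48, 12.48 and 12.64 in control to 11.43, 11.43 and 11.27 in Activin A plus Wnt3a, while miR-20b* read 4.23, 4.79 and 4.07 against 4.19, 4.49 and 4.48. The pair changed by 1.18 ± 0.20 (adjusted p = 0.00056), and by 0.72 (adjusted p = 0.000499) with 1 scale factor.

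At day 5 miR-20b gave 1.67 ± 0.28 in Activin A (adjusted p = 0.00148) and 0.80 (adjusted p = 0.00484) with 1 scale factor per array. MiR-20a gave 1.49 ± 0.26 (adjusted p = 0.00148), but 0.10 (adjusted p = 0.811) with 1 scale factor. Its main strand read 12.89 on all 3 control arrays of day 5, a value set by its rank, and 10.74, 10.98 and 10.74 in Activin A. Both strands of the miR-20a hairpin fell in the combination on the scale of 1 factor per array, from 11.70, 11.77 and 11.73 to 10.61, 10.58 and 10.63 for the main strand and from 5.98, 5.99 and 5.90 to 4.91, 5.03 and 4.91 for the star strand.

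MiR-30e changed the other way, the star strand being lower relative to the main strand in all 3 treatments at day 5. The differences were -1.07 ± 0.19 in Wnt3a (adjusted p = 0.00472), -0.77 in Activin A (adjusted p = 0.0125) and -0.69 in both (adjusted p = 0.0212), and -0.91, -0.71 and -0.63 with 1 scale factor per array. In Wnt3a miR-30e* read 4.57, 4.84 and 4.91 and miR-30e 7.24, 7.73 and 7.22, against 6.97, 6.76 and 6.82 for miR-30e in control. For miR-302a the F-test passed (adjusted p = 0.00762), but the largest single difference, -1.11 ± 0.35 in Wnt3a, did not (adjusted p = 0.0894), was -0.59 without the first Wnt3a array and -0.51 with 1 scale factor, and turned to 0.17 after normexp and 0.14 with a floor of 8.

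**Figure D4:**
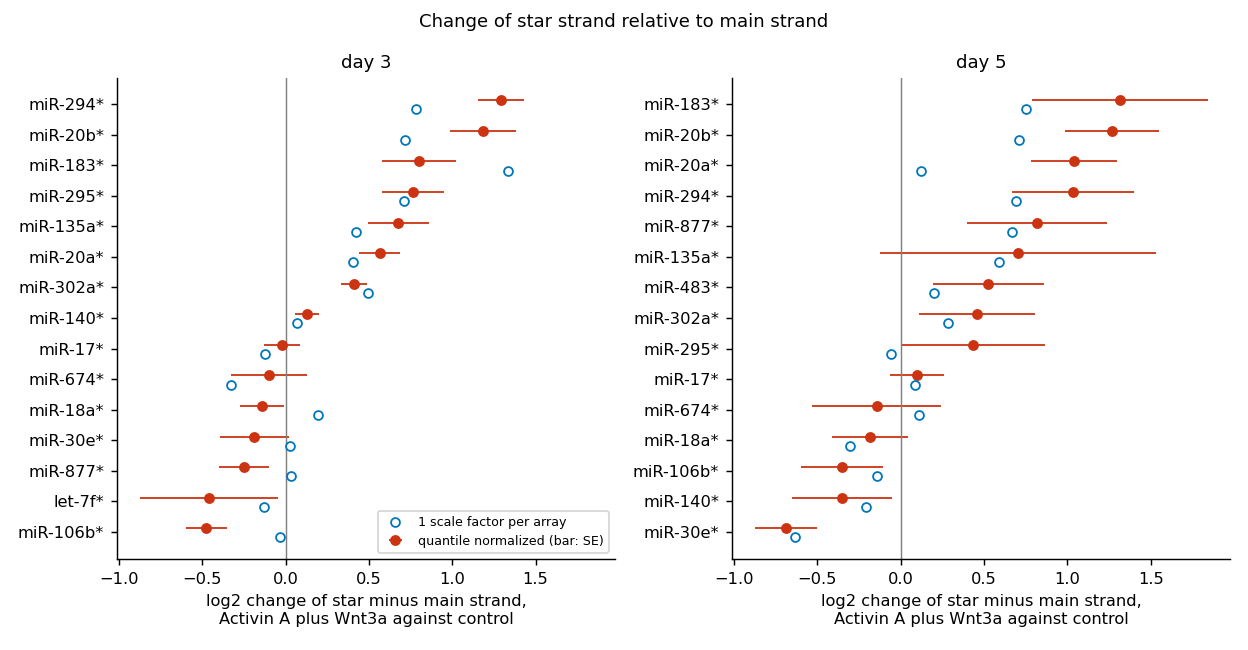
Change of star minus main strand between Activin A plus Wnt3a and control on the log2 scale (x axis) for the 15 pairs tested at day 3 (left) and the 15 tested at day 5 (right), with red points for quantile normalized signals (bar: SE) and open blue points for 1 scale factor per array. MiR-294 and miR-20b are among the top 4 on both days, and the blue point of miR-20a at day 5 is near 0.

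The likeness of the 2 strands over the groups was described by the correlation of their group means, with no test, since groups share arrays and normalization. Over the 13 groups 4 pairs could be compared. Pearson's r was 0.937 for miR-17 (Spearman's rho 0.978), 0.86 for miR-294 (0.819), 0.786 for miR-295 (0.526) and 0.07 for miR-140 (-0.066). With 1 scale factor per array r was 0.949, 0.984, 0.956 and 0.446. Among the 142 other miRNAs on all arrays, the main strand was 9th in likeness for miR-17*, 22nd for miR-294*, 37th for miR-295* and 49th for miR-140*. MiR-291a-5p, from the same cluster, was the most like miR-294* (r = 0.99) and miR-295* (r = 0.989).

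Over the 8 groups of days 3 and 5, a set of groups chosen after their values were seen, 14 pairs had both strands on every array. Their r had a median of 0.75 and 6 were above 0.8. MiR-17 (0.987), miR-302a (0.987) and miR-294 (0.961) were highest, and miR-17 was the miRNA most like miR-17* among 234. MiR-877 (-0.582) and miR-20b (-0.125) were the 2 below 0, and with 1 scale factor per array they were 0.574 and 0.422. For miR-877* the range of group means was only 0.71, and its arrays in control cells at day 5 read 3.69, 4.17 and 4.19, so the sign of its r turns with the scaling and is not read further.

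**Figure D5:**
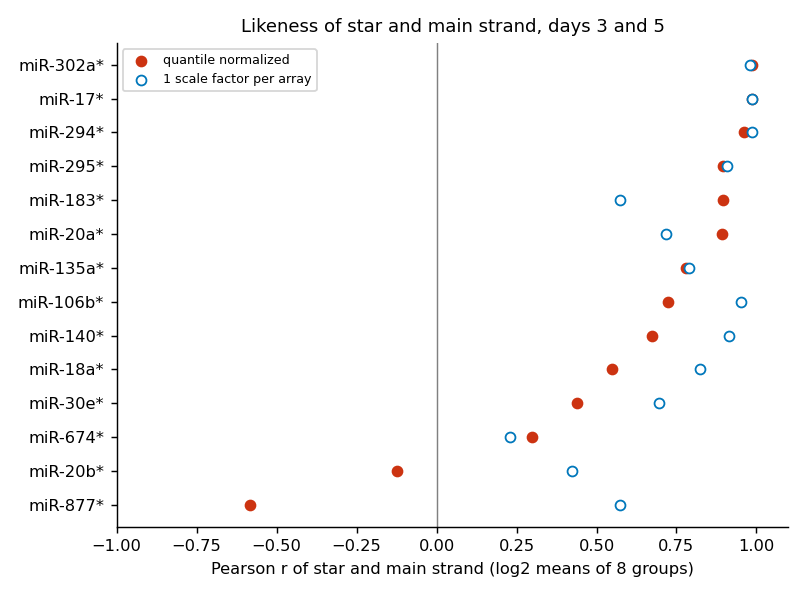
Pearson's r between star and main strand over the group means of the 8 groups of days 3 and 5 (x axis) for 14 pairs (y axis), with red points for quantile normalized signals and open blue points for 1 scale factor per array. Values run from -0.582 for miR-877 to 0.987 for miR-302a and miR-17.

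The effect of Activin A plus Wnt3a differed between day 5 and day 3 for 13 of the 36 star strands, against 28.4% of all miRNAs tested, and for 26 of 73 main strands (limma, interaction contrast). It was larger or more positive at day 5 for 6 and lower for 7. MiR-302a* rose by 1.36 more at day 5 (adjusted p = 1.95e-05), and miR-30a* changed by -2.12 (adjusted p = 0.0003). At day 3 miR-30a* was on 1 of 3 arrays of control and of the combination, so its effect there was held near the floor. MiR-199b* and miR-322* were undetected in both groups at day 3, so their values are the day 5 effects and show no change of effect. For the star minus main differences the count was 0 of 4 pairs, against 0% of 11 arm pairs, and 0 of the 4 also at an unadjusted p under 0.05.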

How the data were processed

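Each of 39 samples was hybridized to 1 Agilent 1-colour mouse miRNA array. The authors deposited scanner output with intensity values, in which per the file headers Agilent Feature Extraction 10.7.3.1 (9.5.3.1 per the labels) had subtracted background and combined the 1 to 4 probes of a miRNA. The deposited files also hold the software's detection and outlier flags (0 or 1). The authors' series matrix, with log2 values they floored and quantile normalized, was deposited too. It served as an alternative only, because 18 of its 39 columns (medians 0.026 to 0.779) followed another array, with Activin A and Activin A plus Wnt3a exchanged.

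Signals were quantile normalized, floored at 2 and logged with limma 3.58.1 in R 4.3.3, which left 55 of 812 detected star strand values at the floor. Median local background was 35 to 42 intensity units and 0 spots were saturated. The scale with 1 factor per array took the 75th percentile of 143 miRNAs on all arrays. Groups came from the labels. Moderated fits ran over all 39 arrays for the 13 groups and over 12 for each day, with Benjamini-Hochberg adjustment over all miRNAs tested, or over arm pairs with both strands on every array. "At least" folds use the lowest signal detected for any miRNA on each array of the undetected group. Only 3 arrays a group limit the precision.

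Star strands and lists were chosen with earlier results of these data known. Given in full are the pairs called, each day's 4 changed strands with the largest differences among those detected on all arrays of both groups and changed alike in all replicates, strands on more arrays than their main strand, and the highest and lowest r; others were named after their values were seen. Alternatives were 2 percentile scalings, normexp (offset 50, outlier spots left out), the series matrix, a floor of 8, other detection filters, the methods' analysis of variance, a single fit, blocks for slide (statmod 1.5.0) or replicate number, and leaving out each array. Those for likeness, detection and the comparison of days were chosen after seeing the data. Fits were tested on simulated data.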

Additional observations from a re-analysis of the deposited data

Results flagged for a closer look

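For 13 star strands the effect of Activin A plus Wnt3a against control differed between day 5 and day 3, by a limma interaction contrast over all 39 arrays with Benjamini-Hochberg adjustment. The values are day 5 minus day 3 on the log2 scale. In the early embryonic clusters miR-294* gave 1.41 (adjusted p = 0.017) and miR-302a* 1.36 (1.95e-05), with a larger rise at day 5, while miR-302c* gave -1.34 (5.36e-05), having been detected in the combination at day 3 and on 1 of 3 arrays at day 5. MiR-183* gave 1.64 (0.00341), with its control at the floor at day 5, miR-31* gave 0.97 (0.0188), miR-199b* 1.37 (0.0361) and miR-674* 0.67 (0.0023), the last with an effect of -0.67 at day 3 and 0.00 at day 5. In the miR-30 family miR-30a* gave -2.12 (0.0003) and miR-30e* -0.90 (0.000828). The others were miR-17* at -0.61 (0.00442), miR-135a* at -0.61 (0.0273), miR-140* at -0.74 (0.00354) and miR-322* at -1.01 (1.30e-05). At day 3 miR-199b* and miR-322* were undetected in control and in the combination, and miR-30a* was on 1 of 3 arrays of each. Their day 3 effects were therefore set at or near the floor. As given above, slide and treatment cannot be told apart for the combination at day 3.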

How the results depend on the processing

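The counts of star strands changed at day 1, 3 and 5 (1, 10 and 11) were 0, 0 and 0 after normexp correction and 0, 4 and 6 with a floor of 8. The day 1 count was also 0 with scaling over all miRNAs, with slide as a block and with the replicate number as a block, and 3 in 1 fit of all arrays. Changed pairs at day 3 (2) were 0 after normexp, 5 in the series matrix and 1 in 1 fit of all arrays, and at day 5 (4) were 1 under both 75th percentile scalings and 7 in 1 fit. With 1 scale factor per array the 2 pairs at day 3 and the 1 at day 5 were not those called after quantile normalization. The count of strands whose effect differed between days (13) was 8 under both scalings, 1 after normexp and 6 in the series matrix. The median r over the 13 groups (0.823) was 0.953 and 0.915 under the scalings, 0.700 after normexp and 0.886 in the series matrix. With 1 array left out at a time the ranges were 22 to 25 strands differing among the 13 groups, 0 to 2, 8 to 10 and 10 to 12 changed at day 1, 3 and 5, 4 to 4 pairs among the 13 groups, 0 to 0, 1 to 5 and 4 to 6 pairs by day, 11 to 14 for the difference between days, 0.805 to 0.845 for the median r and 38 to 41 strands detected. At day 3 the count of pairs was 1 without the third control array and 5 without the second. Named values that turned direction were 3. MiR-183* in Activin A at day 3 was -0.0766 after normexp, miR-295* minus its main strand from ESCs to control day 3 was 0.0804 under both scalings and 0.0946 after normexp, and miR-302a* minus its main strand in Wnt3a at day 5 was 0.17 after normexp and 0.14 with a floor of 8. The causes were not tested, beyond the effect of rank on the brightest miRNAs given above. Of 508 recomputed values of named strands, 484 kept their direction and side of the threshold.

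Replicate numbers did not pair the arrays: of 54 same-numbered pairs within a day 19 had a correlation of deviations above 0.1, with a median of -0.0295. With the replicate number as a block the counts were 24 among the 13 groups, 0, 9 and 11 by day, 4, 0, 2 and 4 for pairs, and 13 between days. Slide was a random block for day 3 and the 13 groups, where it could not be a fixed term. Low signals limit most what is said of ESCs and day 1, where the detection limit was highest.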
